A study of Macaca mulatta with 30 samples.

Results

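Astrocytes and radial glia of the fetal hippocampus were followed through 9 genes that are used as their markers: GFAP, S100B, ALDH1L1, GJA1, GLUL, VIM, FABP7, HOPX-AS1 and APOE. The genes were taken by symbol from the 32386 Ensembl gene identifiers of the hippocampus count table. A row was found for 6 of the 9, and all 6 were among the 17390 genes that passed the filter on low counts. The identifiers paired with S100B and FABP7 matched no row of the table and HOPX-AS1 was paired with no identifier, so that these 3 genes were not analysed here. HOPX, the gene that HOPX-AS1 is named after, had a row and is described with the related genes.

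Pregnant rhesus macaques received saline (control), betamethasone acetate alone (Beta-Ac) or betamethasone acetate with betamethasone phosphate (the clinical drug), and the fetal hippocampus was taken 5 days later for poly(A) RNA sequencing of the whole tissue. There were 5 fetuses in each group, aged 130 to 135 days of gestation in control, 132 to 133 days after Beta-Ac and 131 to 136 days after the clinical drug. The comparisons ask what each drug leaves behind in a developing brain region that is rich in glucocorticoid receptors. The libraries were grouped by their names (CTL for control, BAC for Beta-Ac, CEL for the clinical drug), because the treatment and dose fields of the hippocampus labels run against the names, with 0.25 mg/kg beside BAC and 0.125 mg/kg beside CEL. The animal numbers of 6 treated libraries recur among the lung samples, where 0.125 mg/kg Beta-Ac goes with the BAC animals and 0.25 mg/kg of the clinical drug with the CEL animals. If the fields were right instead, both drug names below would change places.

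Radial glia are the neural stem cells of the fetal brain. Their fibres guide migrating neurons, and late in gestation many of them turn into astrocytes, which clear glutamate and potassium from the synapse, take up water at blood vessels and share ions through gap junctions. In the hippocampus a radial glia-like population persists in the dentate gyrus as the source of neurons born after birth. Glucocorticoids act on astrocytes directly, since these cells express the glucocorticoid receptor, and glutamine synthetase (GLUL) is a classic steroid-responsive enzyme.

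Library totals ran from 18280762 to 29301058 assigned reads, with a median of 23733278, and even the lowest of the 6 genes, ALDH1L1, had 294 to 712 reads in a library. Levels are given as CPM, read counts scaled to a common library size with TMM factors, in the library order CTL092, CTL101, CTL113, CTL209 and CTL212, then BAC128, BAC130, BAC136, BAC235 and BAC237, then CEL115, CEL120, CEL126, CEL238 and CEL245. CPM is not divided by gene length, so levels are compared between libraries and not between genes. CTL212 stood apart: its summed level of 7 choroid plexus markers was 1380 CPM, against 15.6 to 33.4 CPM in the other 14 libraries, and its 7 meningeal markers reached 1018 CPM, against 61.3 to 626.5 CPM. BAC235 also differed from its group over all tested genes. Its chi-square per degree of freedom against counting noise was 161.6 to 257.7 with each other Beta-Ac library. Pairs of those other libraries gave 34.2 to 78.8, and CTL212 gave 107.2 to 175.6 with the other controls. The value of 175.6 was its pair with CTL092. CTL092 itself gave 86.8 to 115.4 with CTL101, CTL113 and CTL209, whose own pairs gave 31.0 to 32.5. Sequencing runs run0024 and run0162 held 3 of the 5 controls and no treated library, while run1630 and run0164 each held 1 control beside both drugs.

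The 6 glial genes as a set showed no called change. A gene was called where the fold change was at least 1.5, p under 0.05 and the Benjamini-Hochberg adjusted p of the edgeR quasi-likelihood test, over all tested genes, under 0.1. By this rule 0 of 6 were called after the clinical drug, where 7.86% of all tested genes were called. Beta-Ac against control and the drugs against each other likewise gave 0 of 6, and 0% of all tested genes were called in either comparison. At an unadjusted p under 0.05, 1 of 6 passed in each comparison, beside 30.6%, 12.3% and 13.5% of all tested genes in that order. The edgeR likelihood ratio test also called 0 of 6 in each comparison, whereas DESeq2 called 0, 0 and 1, the last being VIM. Groups did not overlap in 0 of 6 genes between the clinical drug and control, in 0 of 6 between Beta-Ac and control and in 1 of 6, VIM, between the drugs, beside 15.1%, 1.33% and 2.76% of all tested genes. The median log2 fold change of the 6 was 0.08 with the clinical drug and 0.25 with Beta-Ac against control, and -0.17 between the drugs, beside -0.02, -0.01 and -0.003 over all tested genes. Scaled by library totals alone, which moved the median of all genes to -0.11 for the clinical drug, the median of the 6 was -0.01. In whole tissue, fewer cells of a type and less RNA per cell cannot be told apart.

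**Figure D1:**
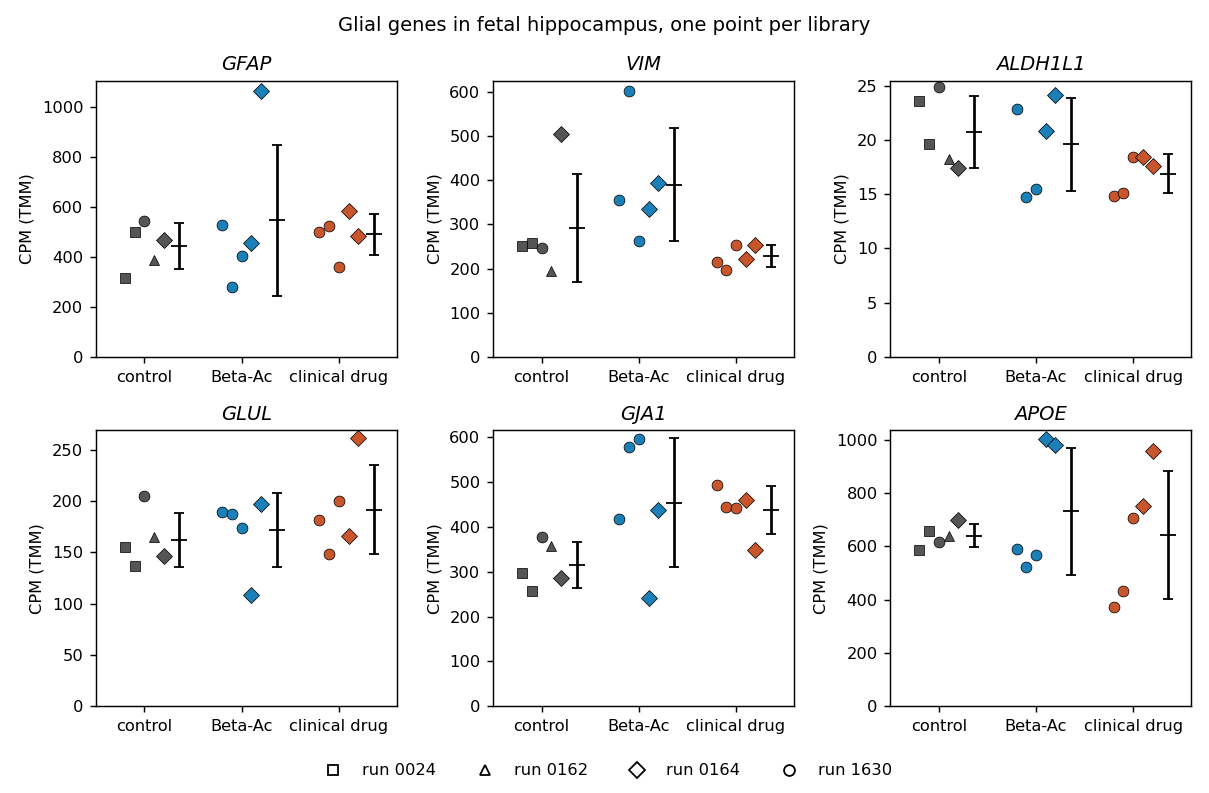
Level of each of the 6 glial genes in CPM after TMM scaling (vertical axis from 0) by group, 1 point per library, with marker shape for the sequencing run; the bar beside each group is the mean ± SD of 5 libraries. GFAP in BAC237 (1065 CPM) and VIM in CTL212 (504.0 CPM) and BAC130 (602.8 CPM) stand above the other libraries of their groups, and VIM after the clinical drug lies below every Beta-Ac library.

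GFAP (ENSMMUG00000013115) encodes the intermediate filament of mature astrocytes and of primate radial glia. Its level was 318, 502, 545, 389 and 470 CPM in the controls. After Beta-Ac it was 528, 280, 407, 457 and 1065 CPM. After the clinical drug it was 502, 525, 359, 586 and 485 CPM. The groups overlapped throughout, and the highest library of all, BAC237, came from the same group as the lowest, BAC130, a range of 3.81-fold within Beta-Ac against 1.72-fold within control. The coefficient of variation was 20.5% in control, 55.4% after Beta-Ac and 17.0% after the clinical drug. The edgeR log2 fold change was 0.14 (SE 0.27, 95% interval -0.44 to 0.73, adjusted p = 0.755) for the clinical drug and 0.30 (SE 0.27, -0.28 to 0.88, adjusted p = 0.696) for Beta-Ac. Without BAC237 the Beta-Ac value became -0.09, so the sign of that difference rested on 1 library. Within run1630 and run0164 the log2 ratio to the 1 control was -0.24 and 0.19 with the clinical drug and -0.43 and 0.69 with Beta-Ac. The interval for the clinical drug spans a 0.739-fold to a 1.65-fold level, so a change within these bounds was not excluded.

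VIM (ENSMMUG00000003193), vimentin, is the filament protein of radial glia and immature astrocytes and is also made by endothelial, meningeal and other mesenchymal cells. It had the clearest difference between the drugs. Controls held 252, 259, 247, 195 and 504 CPM. Beta-Ac libraries held 356, 603, 261, 335 and 393 CPM. Clinical drug libraries held 215, 197, 254, 222 and 254 CPM. Every clinical drug library lay below every Beta-Ac library, with 253.8 CPM as the highest of the former and 261.3 CPM as the lowest of the latter, a separation downwards seen in 1.21% of all tested genes. The log2 fold change between the drugs was -0.77 (SE 0.24, 95% interval -1.28 to -0.27), a level 0.585 times that after Beta-Ac, with an edgeR adjusted p of 0.231 that missed the threshold. DESeq2 gave -0.77 with an adjusted p of 0.0644 and called it, and the adjusted p ranged from 0.0644 to 0.819 over all alternatives. Within run1630 the log2 ratio of the clinical drug to Beta-Ac was -0.88 and within run0164 it was -0.61, both without a test.

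Against control, VIM depended on CTL212. The log2 fold change of the clinical drug was -0.35 (SE 0.24, adjusted p = 0.333) with this library and -0.06 without it, and that of Beta-Ac was 0.42 (SE 0.24, adjusted p = 0.492) with it and 0.71 without it. In run1630, with CTL113 as its control, the log2 ratios were -0.16 and 0.72, and in run0164, with CTL212 as its control, -1.08 and -0.47. The other 4 controls averaged 238.2 ± 29.1 CPM (SD), close to the 228 ± 25.0 CPM of the 5 clinical drug libraries. The 3 libraries with the highest VIM, BAC130, CTL212 and BAC237, were also the 3 with the highest meningeal sum, at 626.5, 1018 and 528.4 CPM. Other libraries did not keep to that order. CTL101 had the next highest sum, 430.6 CPM, with VIM at 258.6 CPM, and BAC235 had a sum of 88.8 CPM with VIM at 335.3 CPM. Of the 7 meningeal markers edgeR's quasi-likelihood test called 0 between the drugs, with 3 at an unadjusted p under 0.05, beside 13.5% of all tested genes. The likelihood ratio test called 1 and DESeq2 2. All 7 had a negative fold change, with a median log2 of -1.32. Their sum ran from 88.8 to 626.5 CPM after Beta-Ac and from 61.3 to 242 CPM after the clinical drug. The part of these markers in the VIM difference was not tested. Without CTL212 and BAC130, a choice made after seeing the data, the log2 difference between the drugs was -0.56 with an edgeR adjusted p of 0.0864, past the adjusted threshold and short of 1.5-fold.

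**Figure D2:**
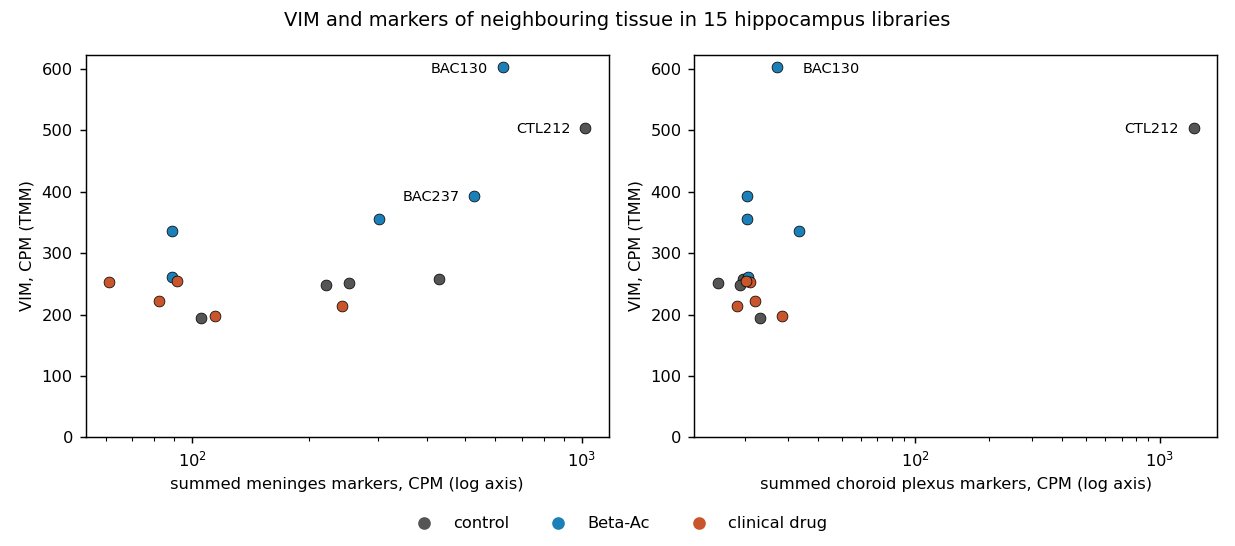
VIM in CPM (vertical axis from 0) against the summed level of 7 meningeal markers (left) and 7 choroid plexus markers (right), the sums on log axes, 1 point per library coloured by group. BAC130, CTL212 and BAC237 are highest on both axes of the left panel, and CTL212 alone lies at 1380 CPM of choroid plexus markers on the right.

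ALDH1L1 (ENSMMUG00000012488), the folate enzyme used to mark astrocytes of all regions, varied less after the clinical drug than in the other groups. Controls stood at 23.6, 19.7, 24.9, 18.2 and 17.4 CPM. Beta-Ac libraries stood at 22.9, 14.8, 15.5, 20.8 and 24.2 CPM. Clinical drug libraries stood at 14.8, 15.1, 18.4, 18.5 and 17.7 CPM. The clinical drug libraries sat at the lower end of the control range without leaving it entirely, since CTL209 and CTL212 lay among or below the highest of them. The log2 fold change was -0.30 (SE 0.15, 95% interval -0.62 to 0.03, edgeR adjusted p = 0.201) for the clinical drug and -0.08 (SE 0.15, adjusted p = 0.869) for Beta-Ac. Within run1630 the clinical drug stood -0.63 from its control on the log2 scale, and within run0164 it stood 0.05 from its control.

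GLUL (ENSMMUG00000022884), glutamine synthetase, turns the glutamate that astrocytes take up into glutamine. Its controls held 155, 137, 205, 165 and 146 CPM. With Beta-Ac the values were 190, 187, 174, 109 and 197 CPM. With the clinical drug they were 182, 148, 200, 166 and 261 CPM. Both drug groups overlapped the controls, and the highest library, CEL245, and the lowest, BAC235, were each the edge of their own group. In the fit, the log2 fold change was 0.24 (SE 0.17, 95% interval -0.12 to 0.61, edgeR adjusted p = 0.361) after the clinical drug and 0.08 (SE 0.17, -0.28 to 0.45, adjusted p = 0.883) after Beta-Ac. A rise of this enzyme by more than 1.53-fold after the clinical drug, or by more than 1.37-fold after Beta-Ac, lay outside these intervals. Within run1630 and run0164 the ratio of the clinical drug to control was -0.22 and 0.55 on the log2 scale.

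GJA1 (ENSMMUG00000005225), connexin 43, forms the gap junctions between astrocytes and the contacts of radial glia with migrating neurons. It was the member with the lowest p against control for both drugs. Controls held 296, 257, 378, 356 and 285 CPM. Beta-Ac libraries held 418, 577, 595, 241 and 438 CPM. Clinical drug libraries held 494, 444, 441, 460 and 349 CPM. After the clinical drug 4 of 5 libraries lay above every control and CEL245 did not, and after Beta-Ac 4 of 5 lay above every control while BAC235 was the lowest of all 15. Its log2 fold change was 0.48 (SE 0.20, 95% interval 0.06 to 0.89) for the clinical drug, 1.39-fold, and 0.53 (SE 0.20, 0.12 to 0.94) for Beta-Ac, 1.44-fold. The edgeR adjusted p was 0.112 and 0.308, so neither was called, and over the alternatives the first ranged from 0.0237 to 0.308, with a fold under 1.5 in each of them. Both comparisons share the controls. Between the drugs the log2 difference was -0.05 (95% interval -0.47 to 0.36, edgeR adjusted p = 0.931), so that a difference within these bounds was not excluded. Within run1630 and run0164 the log2 ratio to the 1 control was 0.28 and 0.50 for the clinical drug and 0.49 and 0.25 for Beta-Ac.

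APOE (ENSMMUG00000014305), the lipid carrier that astrocytes secrete and that microglia and choroid plexus also make, differed among treated libraries more than among controls. The controls were tightly placed at 586, 659, 616, 640 and 698 CPM. After Beta-Ac the level was 590, 522, 566, 1003 and 979 CPM. After the clinical drug it was 373, 433, 706, 751 and 956 CPM. The coefficient of variation was 6.64% in control, 32.5% after Beta-Ac and 37.3% after the clinical drug, and the treated libraries lay on both sides of the controls. All 4 treated libraries of run0164 were above every control, and 5 of the 6 treated libraries of run1630 were below the control median of 639.7 CPM, so run and level moved together within both drugs; the part of the run was not tested. In the fit, the log2 fold change was 0.01 (SE 0.24, 95% interval -0.50 to 0.52, edgeR adjusted p = 0.985) for the clinical drug and 0.19 (SE 0.24, adjusted p = 0.788) for Beta-Ac.

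**Figure D3:**
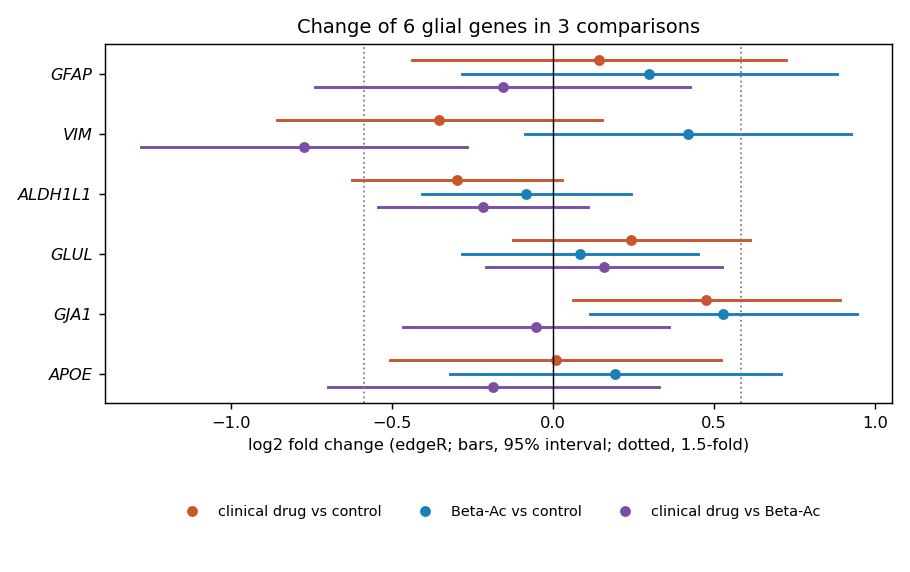
Log2 fold change of the 6 glial genes (horizontal axis) in 3 comparisons, with points for the edgeR estimate, bars for its 95% interval and dotted lines at 1.5-fold. The bars that do not reach 0 are those of GJA1 against control for both drugs and of VIM between the drugs.

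Gestational age was taken as a slope per day in a fit with the groups, and 0 of 6 genes were called, beside 0% of all tested genes, by edgeR's quasi-likelihood test at an adjusted p under 0.1. At an unadjusted p under 0.05 only APOE passed among the 6, beside 15.2% of all tested genes, at a log2 change of -0.14 per day (95% interval -0.26 to -0.02, adjusted p = 0.268). With sequencing run in the fit the APOE slope was -0.04 per day. VIM had a slope of -0.11 per day (-0.23 to 0.01, adjusted p = 0.374), which was -0.02 without CTL212, the youngest fetus. GFAP, ALDH1L1 and GLUL had slopes of -0.03, 0.01 and 0.02 per day, and GJA1 of 0.09 (-0.01 to 0.19, adjusted p = 0.381).

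Across the 15 libraries the members did not rise and fall as one. The highest Spearman rho between any pair was 0.5, for ALDH1L1 and APOE, and the lowest was -0.536, for GJA1 and APOE. The tested gene with the most alike profile had a rho of 0.875 for GFAP (ABLIM3), 0.911 for ALDH1L1 (GBA2), 0.957 for GJA1 (PRKAR1A), 0.857 for GLUL (CYP2D6), 0.904 for VIM (OSGEP) and 0.929 for APOE (NUDT16). These values describe likeness over libraries that share groups, runs and depth, and each is the highest among all tested genes with a symbol, so they carry no p.

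Other astrocyte genes were taken from a wider list, and no test compared them with the 6 above. The list was chosen with earlier results of these data known, so its counts describe the list and are not independent evidence. Of 25 tested genes on a list of 30 astrocyte markers that holds none of the 9, 6 rose, 1 fell and 18 were not called, beside 2.5% of all tested genes called higher and 5.35% called lower (435 and 931 genes, or 246 and 1443 scaled by library totals alone). Among the 25, 19 had a positive fold change and the median log2 was 0.39, beside -0.02 over all tested genes, and under library totals alone the count was again 19 with a median of 0.31. The genes that rose were AQP4, GJB6, KCNJ10, ID4, S1PR1 and SPARCL1. Markers of neighbouring tissue moved in the same comparison: 4 of 7 meningeal genes (COL1A1, COL1A2, COL3A1 and DCN) and 6 of 7 choroid plexus genes fell, with median log2 values of -1.48 and -4.88. Without CTL212, a setting added after seeing the data, 1 meningeal gene fell, 1 choroid plexus gene fell and 1 rose, while 7 astrocyte genes rose and 0 fell. The median log2 values without CTL212 were -1.02 for the meningeal, -0.62 for the choroid plexus and 0.31 for the astrocyte genes. For Beta-Ac against control 0 of 25 were called, with 3 at an unadjusted p under 0.05, beside 12.3% of all tested genes, and a median log2 of 0.18. Between the drugs 0 of 25 were called, with 5 at an unadjusted p under 0.05, beside 13.5% of all tested genes, and a median of 0.14. In these comparisons edgeR's quasi-likelihood test called 0% of the table, the likelihood ratio test called ID4 after Beta-Ac and no astrocyte gene between the drugs, and DESeq2 called GJB6 and ID4 after Beta-Ac and SLC1A2, a glutamate transporter, between the drugs.

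**Figure D4:**
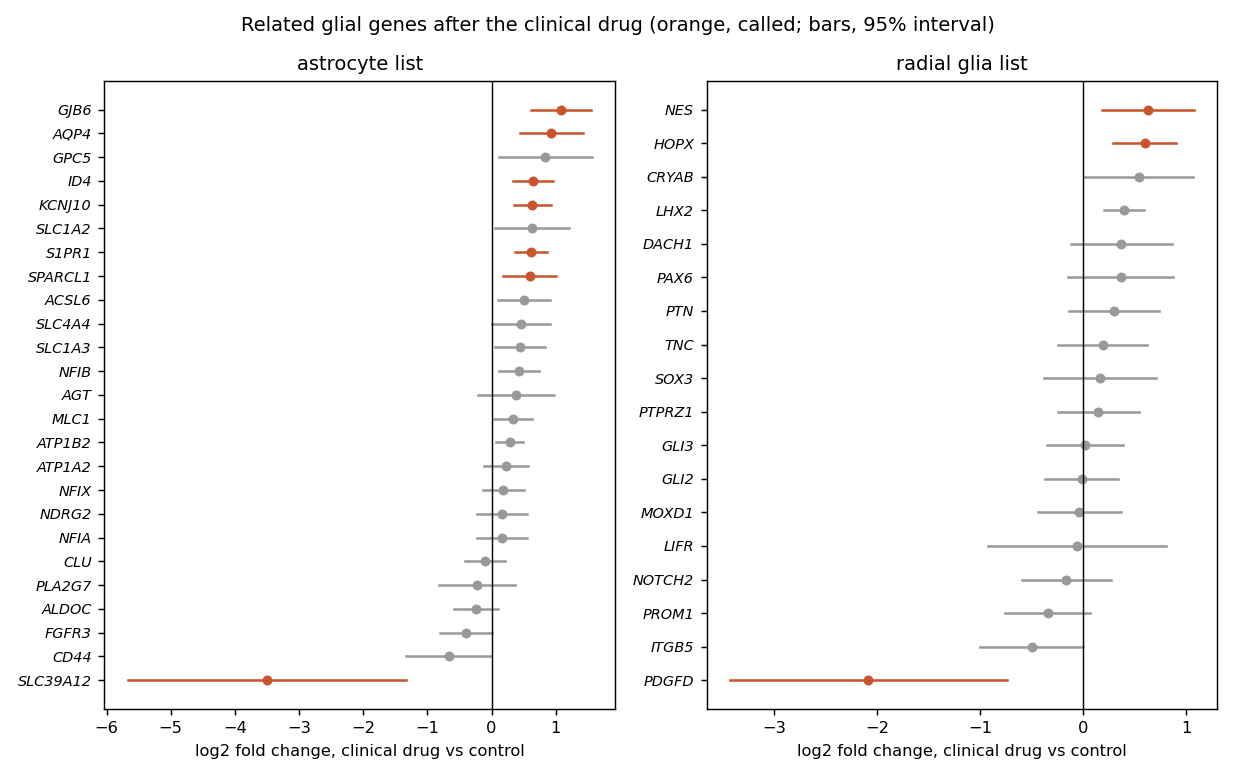
Log2 fold change after the clinical drug against control (horizontal axis) for the 25 tested genes of the astrocyte list (left) and the 18 of the radial glia list (right), with bars for the 95% interval and orange for called genes. The orange points right of 0 run from S1PR1 and SPARCL1 to GJB6 (1.09), and both orange points left of 0, SLC39A12 and PDGFD, have the widest bars.

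AQP4 (ENSMMUG00000014934), the water channel of astrocyte endfeet, stood at 452, 443, 793, 607 and 434 CPM in control. It stood at 782, 690, 1204, 442 and 699 CPM after Beta-Ac and at 1279, 896, 1162, 1039 and 833 CPM after the clinical drug. Every clinical drug library was above every control, and Beta-Ac libraries covered nearly the whole span between. The log2 fold change was 0.93 (SE 0.23, 1.91-fold, edgeR adjusted p = 0.0225), and within run1630 and run0164 it was 0.49 and 1.11.

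GJB6 (ENSMMUG00000023295), connexin 30, is the second gap junction protein of astrocytes beside GJA1 and appears as they mature. Its controls held 17.8, 21.8, 22.5, 14.7 and 16.4 CPM. Beta-Ac libraries held 27.7, 48.5, 24.03, 32.4 and 16.8 CPM, and clinical drug libraries held 37.1, 35.2, 41.7, 48.9 and 35.0 CPM. The clinical drug libraries lay above all controls, and 4 of 5 Beta-Ac libraries did too. In the fit, the log2 fold change was 1.09 (SE 0.22, 2.12-fold, edgeR adjusted p = 0.0140) for the clinical drug and 0.68 (SE 0.22, adjusted p = 0.267, not called) for Beta-Ac.

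KCNJ10 (ENSMMUG00000046470) encodes Kir4.1, the potassium channel through which astrocytes buffer potassium. It was 112, 124, 161, 112 and 139 CPM in control, 167, 124, 172, 107 and 145 CPM after Beta-Ac and 199, 182, 214, 198 and 215 CPM after the clinical drug. The clinical drug libraries lay above all others. Its log2 fold change was 0.64 (SE 0.13, edgeR adjusted p = 0.0142) against control and 0.50 (SE 0.13, adjusted p = 0.219, not called) against Beta-Ac.

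ID4 (ENSMMUG00000014691), an inhibitor of helix-loop-helix factors found in neural stem cells and astrocytes, rose after the clinical drug. Controls ran from 72.6 to 111.2 CPM, Beta-Ac libraries from 108.8 to 185 CPM and clinical drug libraries from 124 to 157 CPM. In the fit, the log2 fold change was 0.65 (SE 0.15, edgeR adjusted p = 0.0172) for the clinical drug and 0.67 (SE 0.15, adjusted p = 0.213, not called) for Beta-Ac, and the drugs differed by -0.02 (95% interval -0.33 to 0.29). Both comparisons share the controls. S1PR1 (ENSMMUG00000042059), a sphingosine phosphate receptor of astrocytes and endothelium, ran from 56.0 to 85.0 CPM in control, from 65.5 to 83.6 CPM after Beta-Ac and from 87.0 to 109.4 CPM after the clinical drug. Its log2 fold change was 0.62 (SE 0.12, edgeR adjusted p = 0.0138) against control. SPARCL1, a secreted matrix protein of astrocytes that lies past the limit on named genes and was named after its value was seen, changed by 0.59 on the log2 scale (edgeR adjusted p = 0.0580).

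Groups did not overlap, with the clinical drug higher than control, in 5 of the 25 astrocyte genes, beside 5.07% of all tested genes. With sequencing run in the fit 3 of the 6 astrocyte genes, GJB6, ID4 and AQP4, were still called, at log2 fold changes of 1.02, 0.62 and 0.77, and KCNJ10 and S1PR1 were not, at 0.42 and 0.44. With that term the contrast to control rests on CTL113 and CTL212, since the other controls came from runs without treated libraries. In the 2 shared runs alone ID4 was the only 1 of the 6 still called. The S1PR1 call was also lost without CTL092, CTL209, CEL126 or CEL245, where the log2 value was 0.572 to 0.584, just under 1.5-fold, with the edgeR adjusted p still under 0.1. The 1 astrocyte gene that fell, SLC39A12, a zinc transporter, had 298 CPM in CTL212 against 4.32 to 10.7 CPM in the other controls. The log2 fold change of -3.50 was -0.50 and not called without that library.

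**Figure D5:**
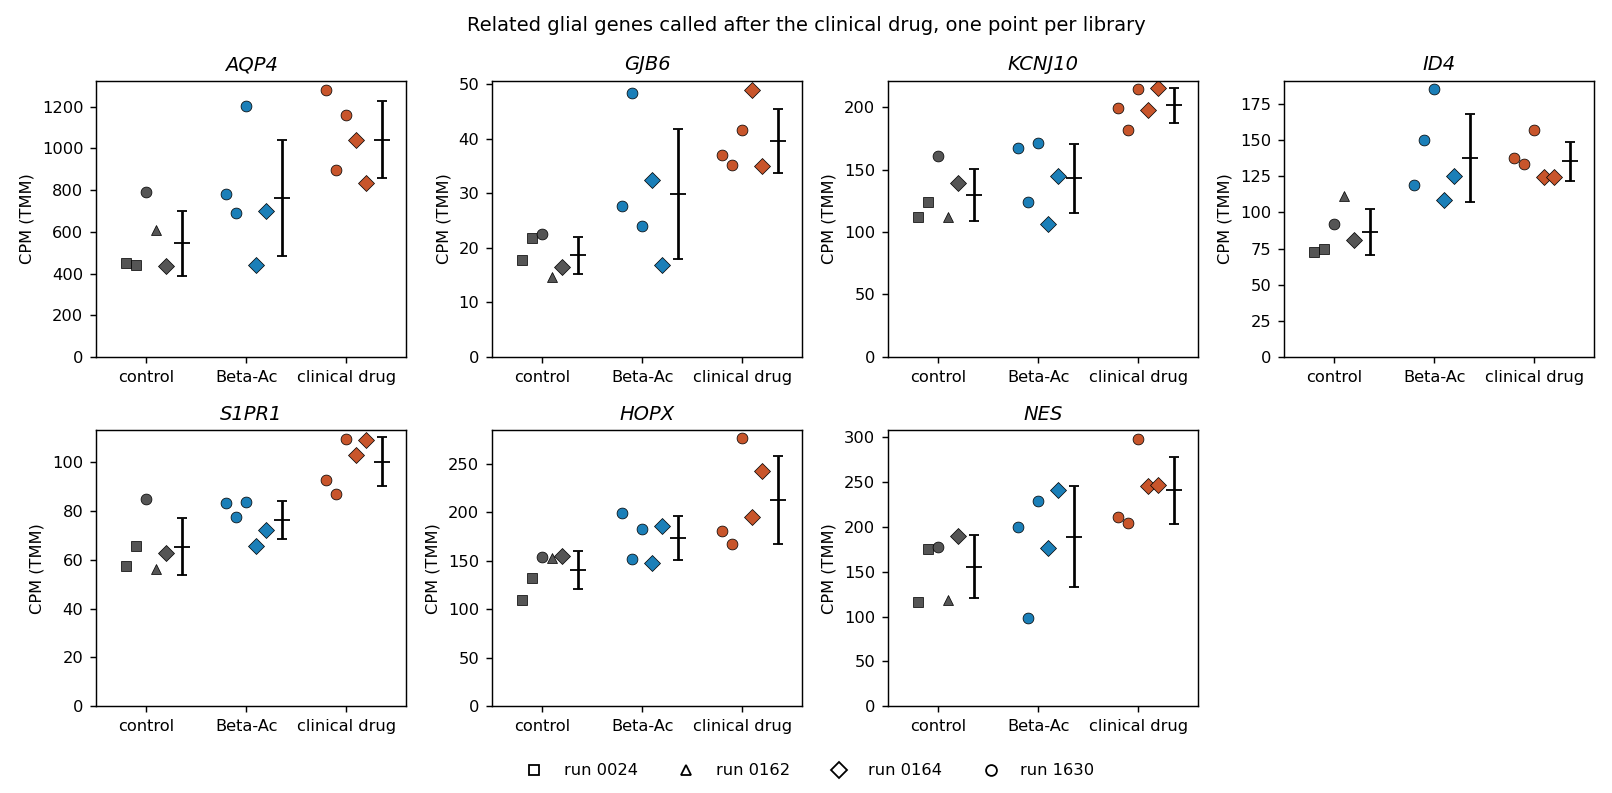
Level in CPM after TMM scaling (vertical axis from 0) of 5 astrocyte list genes and 2 radial glia list genes called higher after the clinical drug, 1 point per library with marker shape for the sequencing run and mean ± SD of 5 libraries beside each group. In all 7 panels every clinical drug library lies above every control, and Beta-Ac libraries overlap the controls. SPARCL1, also called higher, is not drawn, and its clinical drug and control libraries overlapped.

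On the radial glia list, also chosen with earlier results of these data known, 18 of 25 genes were tested. Against control, 2 were called higher after the clinical drug (HOPX and NES), 1 was called lower (PDGFD) and 15 were not called. Of all tested genes 2.5% were called higher and 5.35% lower. Of 18 genes a single call lower is near that background, and the median log2 was 0.15 beside -0.02 over all tested genes. HOPX (ENSMMUG00000017788), a homeodomain cofactor of outer radial glia and dentate stem cells, had 110, 132, 154, 153 and 155 CPM in control. It had 200, 152, 183, 147 and 186 CPM after Beta-Ac and 180, 167, 276, 196 and 243 CPM after the clinical drug. All 5 clinical drug libraries exceeded all controls, and 3 of 5 Beta-Ac libraries did. The log2 fold change was 0.60 (SE 0.14, 95% interval 0.29 to 0.90, 1.51-fold, edgeR adjusted p = 0.0205) for the clinical drug and 0.30 (SE 0.14, adjusted p = 0.410, not called) for Beta-Ac. Lying just past 1.5-fold, the call was lost without CTL092, CTL101, CEL126 or CEL245 and with run in the fit, where the value was 0.46.

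NES (ENSMMUG00000006265), nestin, the intermediate filament of neural stem cells that assembles with VIM, had 116, 176, 178, 119 and 190 CPM in control, 200, 99.0, 229, 176 and 242 CPM after Beta-Ac and 211, 204, 298, 246 and 247 CPM after the clinical drug. In the fit, the log2 fold change was 0.63 (SE 0.21, edgeR adjusted p = 0.0590) after the clinical drug and 0.28 (SE 0.21, adjusted p = 0.611, not called) after Beta-Ac. With run in the fit the first was 0.41 and not called, and the call was also lost without CTL092, CTL209 or CEL126. PDGFD, a growth factor of outer radial glia, was near the limit of detection outside CTL212, at 0.0875 to 1.57 CPM, and its log2 fold change of -2.09 (edgeR adjusted p = 0.0429) was -1.11 and not called without CTL212, which held 4.28 CPM. For Beta-Ac against control 0 of 18 were called, with 5 at an unadjusted p under 0.05 (lowest for DACH1, PAX6 and LHX2) beside 12.3% of all tested genes. Between the drugs 0 of 18 were called, with 0 at an unadjusted p under 0.05, beside 13.5% of all tested genes. DESeq2 and the likelihood ratio test also called 0 of 18 in both comparisons.

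The fetal lung of 9 of these animals was set beside the hippocampus to see which of the genes separate brain from a tissue without astrocytes. GFAP had 0 to 4 reads in a lung library and 280 to 545 CPM in the hippocampus of the same 9 animals. ALDH1L1 ran from 2.12 to 5.53 CPM in lung and from 14.8 to 24.9 CPM in hippocampus. GJA1 and APOE were higher in hippocampus in 9 of 9 animals too, at 257 to 595 CPM against 138 to 261 CPM for GJA1 and 373 to 706 CPM against 193 to 333 CPM for APOE. VIM and GLUL went the other way in 9 of 9, with 549 to 822 CPM of VIM and 240 to 343 CPM of GLUL in lung against 197 to 603 CPM and 137 to 205 CPM in hippocampus. Both tables were counted over different gene sets and scaled separately, so these levels were set side by side without a test. GFAP was near absent from lung, whereas VIM, GLUL, GJA1 and APOE exceeded 100 CPM in the lung of all 9 animals.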

How the data were processed

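RNA was extracted from 15 fetal hippocampi (5 per group) with Trizol, selected for poly(A) and sequenced in paired ends. The authors aligned reads with Bowtie2 and counted them per gene with featureCounts, per the labels, and the deposited values are raw read counts per Ensembl gene; the genome was rhesus MMUL1.0 by the study's methods, and whether counting used strand is not given in the sources used here. Symbols came from a table of Ensembl names, which paired 54.4% of identifiers.

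Counts were analysed in R 4.3.3 with edgeR 4.0.16 (TMM; at least 7 reads in at least 5 libraries; glmQLFit and glmQLFTest on all 15 libraries without covariates) and Benjamini-Hochberg adjustment over 17390 genes. The SE is the log2 fold change divided by the root of F. DESeq2 1.42.0 was an alternative. Simulated counts over 17248 genes, with 200 changed, for the clinical drug against control gave back 71% of 2-fold and 92% of 4-fold changes. Of the genes called there 5.78% were false. The simulation held no run effect and no library unlike its group, and changes under 2-fold were not simulated. Its shares are therefore not the power of the real comparison. Replicate numbers come from separate animals. Members and marker lists were chosen with earlier results of these data known. Named genes were the members, up to 6 called genes of lowest p per related list and comparison, or the 3 of lowest p where none was called, and the most alike gene of each member. The treatment and dose fields conflict with the library names, and names were used.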

Additional observations from a re-analysis of the deposited data

Results flagged for a closer look

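In each group of 5 the highest and the lowest library were compared with the nearest of the others by Dixon's ratio for the 6 genes and HOPX, 21 groups in all, of which chance alone marks about 1 in 20. The gap was past the critical value of 0.71 in 2 groups. VIM in CTL212, at 504.0 CPM, stood above the other controls (195 to 258.6 CPM). GLUL in BAC235, at 108.6 CPM, stood below the other Beta-Ac libraries (174 to 197 CPM).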

How the results depend on the processing

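The count of called members stayed at 0 of 6 in each comparison, and for gestational age, without each of the 15 libraries in turn and under the other alternatives run, except that DESeq2 called 1 (VIM) between the drugs. For the clinical drug the 6 astrocyte genes called higher became 3 with run as a term, 1 in the 2 shared runs alone and 2 with library totals alone, which shift the median of all genes to -0.11, and ranged from 4 (without CTL092) to 8 with 1 library left out. The 1 called lower became 2 with run and by Storey's q, was 0 with age as a term, in animals with a lung library, by DESeq2 and without CTL212 and BAC130, and ranged from 0 (without CTL212) to 1. The 2 radial glia genes called higher became 0 with run, in the shared runs and with library totals, and 1 in animals with a lung library, and ranged from 0 (without CTL092 or CEL126) to 3. The 1 called lower became 3 with run, 2 in the shared runs and 0 in animals with a lung library, and ranged from 0 (without CTL212) to 1. All-gene calls were 1366, 0 and 0, against 1405, 149 and 186 by DESeq2 and 1471, 108 and 99 by the likelihood ratio test, and those of the clinical drug were 958 with run and 596 in the shared runs. Without BAC128 Beta-Ac had 184 against control, and without CTL212 and BAC130 the drugs differed in 222. The cause of these moves was not tested.

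No member was called in the main fit, so every sign that turned was that of an uncalled member. With run as a term, and in the shared runs, the log2 change after the clinical drug was -0.0351 and -0.0206 for GFAP and -0.0290 and -0.0140 for APOE, and after Beta-Ac -0.0399 and -0.0193 for GLUL, and the GFAP slope was 0.108 per day with run. APOE after the clinical drug was -0.0307 with age, -0.0836 with library totals and -0.297 in animals with a lung library. In those animals GFAP and APOE after Beta-Ac were -0.159 and -0.140, and GFAP and GLUL between the drugs 0.184 and -0.0629. GJA1 between the drugs was 0.0494 without CTL212 and BAC130. With 1 library left out the ranges that crossed 0 were -0.177 to 0.153 for APOE after the clinical drug, -0.0895 to 0.466 for GFAP and -0.168 to 0.00358 for ALDH1L1 after Beta-Ac, -0.322 to 0.234 for GFAP and -0.212 to 0.0642 for GJA1 between the drugs, and -0.0259 to 0.0352 for ALDH1L1 and -0.00397 to 0.0719 for GLUL per day. No paired analysis was possible because the groups share no animal. The settings on the related lists and the set without CTL212 and BAC130 were chosen after seeing the data.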

Other observations

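Other cell types of the hippocampus were followed with marker lists, also chosen with earlier results of these data known. The microglial list named 9 genes, but AIF1, CX3CR1, TMEM119, C1QA and C1QB had no row. Of the 4 tested, 2 rose after the clinical drug, the complement gene C1QC and the purinergic receptor P2RY12, beside 2.5% of all tested genes called higher. The median log2 over the 4 was 0.47. Neuronal markers showed 0 of 10 called in the same comparison, with 0 at an unadjusted p under 0.05 by edgeR's quasi-likelihood test, beside 30.6% of all tested genes, and a median of 0.07. On the list of hippocampal neuron genes 1 of 10 rose, NEUROD1, a factor of newborn granule neurons, beside 2.5% of all tested genes called higher. Among 10 oligodendrocyte genes 0 were called after either drug, with 1 at an unadjusted p under 0.05 after the clinical drug and 4 after Beta-Ac, beside 30.6% and 12.3% of all tested genes, and 9 of 10 stood higher after the clinical drug than after Beta-Ac with a median log2 of 0.46 and 4 at an unadjusted p under 0.05, beside 13.5% of all tested genes. Of 5 precursor genes 1 rose after the clinical drug, GPR17, a receptor of committed precursors, beside the same 2.5% of all tested genes. Higher after the clinical drug than after Beta-Ac were also 5 of 5 precursor genes (median log2 0.31) and 9 of 10 hippocampal neuron genes (0.44). So were 8 of 10 neuronal markers (0.13) and 3 of 4 microglial genes (0.29). In that order 4, 3, 1 and 2 passed an unadjusted p under 0.05 by edgeR's quasi-likelihood test, and 0 were called. A single call on a short list is not read as a change of the cell type. The genes named here were named after their values were seen.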
